A study of Mus musculus with 4 samples.

Results

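Glutathione transferases and the enzymes that dispose of superoxide and peroxides were followed in testes of a busulfan model of oligozoospermia in mice. Members were taken by symbol: the cytosolic glutathione transferases of the alpha, mu, pi, theta, omega and zeta classes, the kappa class, the microsomal transferases, the peroxiredoxins, the superoxide dismutases, catalase, and the single genes Gclc, Gclm, Gss, Gsr, Srxn1, Txn1, Txn2, Txndc2, Nqo1 and G6pdx of glutathione, thioredoxin and NADPH supply. The rule found 46 genes among the 44509 symbols of the table. Of these, 42 reached 1 FPKM (fragments scaled by gene length and library size) in at least 2 of the 4 libraries and were tested with 19837 genes in all, and each of the 42 was at 1 FPKM or more in all 4 libraries.

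Total RNA came from testis tissue of mice given busulfan (2 libraries, busulfan 1 and 2) and of mice given busulfan and then Cus-1, a resin glycoside from a cuscutae extract (2 libraries, Cus-1 1 and 2). Both groups therefore carry the busulfan injury, and no library of an untreated testis was analysed here. The labels give no strain, age, dose or time, and do not say whether the 2 libraries of a group came from separate mice, so the p-values cover the spread among these libraries and no more, and part of it may be technical. The sample titles begin with BPA in one group and with CUS2 in the other, which the labels do not explain, and the groups rest on the source label alone.

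Glutathione transferases join the thiol of glutathione to electrophiles and so make them soluble and ready for export. Busulfan, a bifunctional alkylating agent, is cleared mainly by this route, with alpha class enzymes as its best known catalysts. Peroxiredoxins and catalase remove hydrogen peroxide, the superoxide dismutases make it from superoxide, and thioredoxin, glutathione reductase and the NADPH that G6pdx helps to supply return the thiols to their reduced state. In the testis, Sertoli and Leydig cells are rich in mu and alpha class enzymes, while spermatids carry proteins of their own, among them the thioredoxin Txndc2 of the sperm tail.

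Most of these genes were lower in the Cus-1 libraries, and a smaller group was higher. The largest upward log2 fold changes were those of Gstt4, Gsto2, Txndc2 and Gstm5. Without Cus-1 1, Gstt4 was at 0.60 in place of 1.20 and Txndc2 at 0.27 in place of 0.91. Both Cus-1 libraries lay below both busulfan libraries for 23 of the 42 tested members (54.8%, against 31.7% of all tested genes) and above them for 9 (21.4%, against 36.6%), with 10 overlapping. The median log2 fold change of the 42 was -0.35, and that of all tested genes 0.04, as Cus-1 minus busulfan on log2(FPKM + 1), the scale of every fold change given here. None passed the threshold of 0.05 after Benjamini-Hochberg adjustment in limma, nor did any of the 19837 genes (0%), although 7 genes, no member among them, passed without Cus-1 1. At an unadjusted limma p under 0.05 there were 9 members lower (21.4%, against 9.96% of all genes) and 4 higher (9.52%, against 18.0%). The smallest p an exact two-sided permutation of 2 against 2 libraries allows is 0.333. The member median moved when single libraries were left out: it was -0.13 with Cus-1 1 left out, beside 0.03 for all tested genes. It was -0.29 if busulfan 1 was dropped, -0.35 if busulfan 2 was dropped and -0.38 if Cus-1 2 was dropped. The medians of all tested genes were then 0.03, 0.06 and 0.06, in the same order. The count of lower members at an unadjusted limma p under 0.05 also moved, falling in some of these fits and rising in another. In each such fit 1 group holds a single library, which is assumed to vary like the pair of the other group. These values are therefore less certain than those from all 4 libraries. Cus-1 1 was the lower of the 2 treated libraries for 20 of the 23 genes that lay below, and the higher for 8 of the 9 that lay above.

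**Figure D1:**
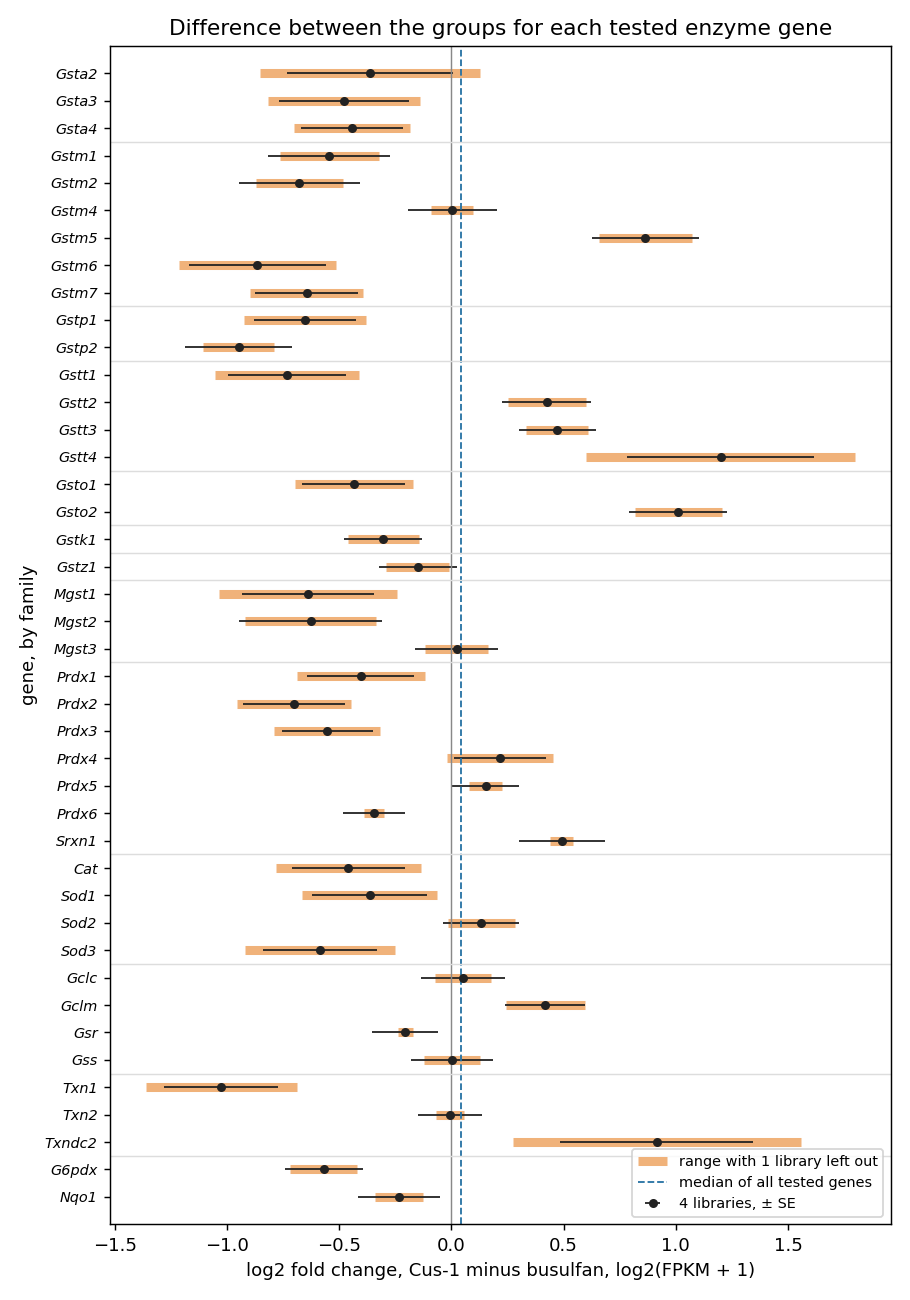
Log2 fold change of each tested member (x axis, Cus-1 minus busulfan on log2(FPKM + 1)), grouped by family from top to bottom, with points and black bars for the estimate and its standard error over 4 libraries and orange bars for the range with 1 library left out. Gsto2, Gstm5, Gstt4 and Txndc2 lie farthest to the right and Txn1, Gstp2, Gstm6 and Gstt1 farthest to the left, and the dashed line is the median of all tested genes at 0.04.

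The libraries also differed in markers of cell types. Estimated depth was 12.1 to 14.2 M fragments (M being 1e+06), read from the steps of low values. The 23 tested Sertoli cell markers (of 24) were all below busulfan in both Cus-1 libraries, with summed FPKM of 9226 and 7265 in the busulfan and 4585 and 5371 in the Cus-1 libraries and a median log2 fold change of -0.72. The 14 Leydig markers summed to 30312 and 30073 against 14757 and 21520 (median -0.49, and -0.23 without Cus-1 1). Insl3 was most of that sum, at 22947 and 20478 FPKM in the busulfan and 10265 and 14601 in the Cus-1 libraries. Of the Leydig markers 10 lay below busulfan and 4 overlapped, among them Star, Cyp11a1 and Cyp17a1. The 14 macrophage markers summed to 1025 and 787 against 437 and 632 (median -0.67, and -0.43 without Cus-1 1). The 14 round spermatid markers were all above busulfan in both Cus-1 libraries, with sums of 329 and 463 against 1004 and 651 and a median of 1.14 (0.70 without Cus-1 1), and the 15 elongating spermatid markers likewise, with sums of 3844 and 4159 against 14028 and 5457 and a median of 1.20. Leaving out Cus-1 1 gave the last list a median of 0.50, and leaving out Cus-1 2 gave 1.92. Medians for the other lists were 0.96 for 15 spermatocyte genes (0.60 without busulfan 1 and 1.40 without busulfan 2), -0.11 for 11 spermatogonia genes (0.11 without busulfan 2), -0.63 for 14 peritubular and stromal genes (-0.30 without busulfan 1) and -0.48 for 9 endothelial genes. Among possible additions to the tissue, the 8 erythrocyte markers summed to 582 and 309 FPKM in the busulfan and 293 and 262 in the Cus-1 libraries, and the 6 epididymis markers matched to 41.5 and 20.6 against 16.9 and 16.2. Spink8 was the largest part of the epididymis sum, at 37.4 and 12.7 FPKM in the busulfan and 10.4 and 11.03 in the Cus-1 libraries. No marker listed in the table was at 0 in all 4 libraries, but only 6 of the 11 epididymis markers sought were listed. The part of cell mixture in the enzyme results was not tested, and in whole tissue fewer cells of a type and less RNA per cell cannot be told apart.

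**Figure D2:**
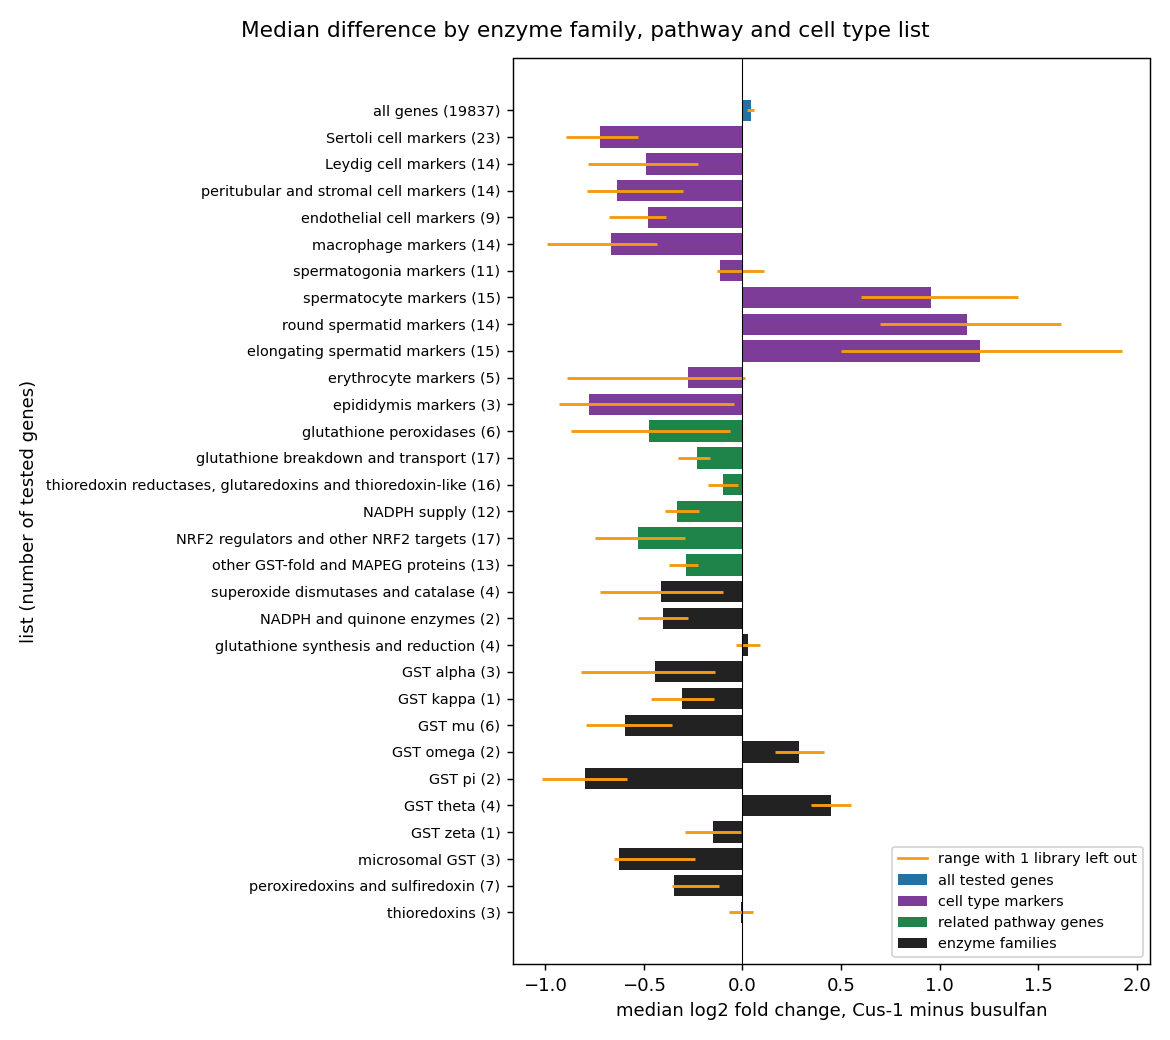
Median log2 fold change (x axis, Cus-1 minus busulfan) of all tested genes, of cell type marker lists, of related pathway lists and of the enzyme families, with the number of tested genes in parentheses and orange lines for the range with 1 library left out. The GST theta and omega families are the enzyme bars well above 0 (0.45 and 0.29), and most other families lie between the somatic marker lists and 0.

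The mu class held the most abundant members and had genes on both sides of busulfan within 1 gene cluster. Its genes lie together on chromosome 3 of mm10, between 107895821 and 108044894, in the order Gstm5, Gstm7, Gstm6, Gstm3, Gstm2, Gstm1 and Gstm4, with Gstm5 on the plus strand and the other members on the minus strand. Gstm1 was at 3061 and 2896 FPKM in the busulfan and 1751 and 2378 in the Cus-1 libraries (log2 fold change -0.54, SE 0.27). Gstm2 was at 2990 and 2284, then 1476 and 1808, FPKM in the busulfan and Cus-1 pairs (-0.68, SE 0.27, adjusted p = 0.182). For both genes the treated libraries lay below the busulfan libraries with no overlap. Gstm6 was at 273 and 193 FPKM in the busulfan and 98.7 and 160 in the Cus-1 libraries (-0.86, SE 0.30, adjusted p = 0.166), and Gstm7 at 261 and 218 against 128 and 181 (-0.64, SE 0.23, adjusted p = 0.166). Gstm4 was near 8 FPKM in both groups (8.54 and 7.47 against 7.44 and 8.62). Gstm6 was at -0.52, Gstm7 at -0.39 and Gstm1 at -0.32 without Cus-1 1. Under quantile normalization, which alters the top of the range, Gstm1 was at -0.18 and the class median at -0.28 in place of -0.59.

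Gstm5, the mu class gene known for its high level in testis and brain, was the exception. It was at 568 and 757 FPKM in the busulfan and 1312 and 1086 in the Cus-1 libraries, so that both treated libraries lay above both busulfan libraries. The group means were 663 ± 134 and 1199 ± 160 FPKM (SD, n = 2), a ratio of 1.81, with a log2 fold change of 0.86 (SE 0.24, adjusted p = 0.152). It stayed between 0.66 and 1.07 with any 1 library left out, and was 0.90 under quantile normalization. Gstm5 made up 7.93% and 11.9% of the summed FPKM of the mu class in the busulfan and 27.5% and 19.3% with Cus-1. The class as a whole summed to 7161 and 6356 FPKM in the busulfan and 4773 and 5624 in the Cus-1 libraries, which was 0.994% and 0.862% of the summed FPKM of named genes against 0.661% and 0.766%. Of the exonic bases of Gstm5, 178 are shared with an antisense gene, 4933431E20Rik, which stood at 5.84 to 8.13 FPKM and was lower with Cus-1.

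Because Gstm5 and Gstm1 lie in 1 cluster and differed in direction, the 250 bases before their RefSeq start sites are shown, 5′ to 3′ on the strand of the gene (GRCm38.p6, the mm10 build), at chr3:107895604-107895853 on the plus strand for Gstm5 and chr3:108017974-108018223 on the minus strand for Gstm1. Capitals mark the core of the antioxidant response element, TGACNNNGC, which NRF2 with a small MAF protein binds.
Gstm5: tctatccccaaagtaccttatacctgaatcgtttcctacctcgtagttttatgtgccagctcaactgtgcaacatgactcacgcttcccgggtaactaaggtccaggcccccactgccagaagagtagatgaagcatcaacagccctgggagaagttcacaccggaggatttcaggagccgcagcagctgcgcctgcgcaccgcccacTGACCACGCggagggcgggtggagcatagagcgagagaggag
Gstm1: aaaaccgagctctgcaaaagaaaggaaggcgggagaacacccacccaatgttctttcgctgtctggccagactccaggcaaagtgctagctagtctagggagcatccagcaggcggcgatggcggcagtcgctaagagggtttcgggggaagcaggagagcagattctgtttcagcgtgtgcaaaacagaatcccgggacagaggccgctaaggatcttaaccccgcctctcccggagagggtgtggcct
The Gstm5 stretch holds 1 match, whose first base lies 42 bases before the start, and the Gstm1 stretch holds none. The more upstream start site of Gstm1 was used, and the window at its other start site also holds none. Gstm7, which lay below busulfan, has a match in 1 of its windows, while Gstm2 and Gstm6, also below, have none. Of all RefSeq promoter windows of 300 bases, 12.4% hold a match. Whether the match bears on direction was not tested.

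The alpha class, the transferases best known for conjugating busulfan, was lower on average but overlapped between the groups for most genes. Gsta4, which conjugates the lipid peroxidation product hydroxynonenal, was at 462 and 424 FPKM in the busulfan and 272 and 389 in the Cus-1 libraries (log2 fold change -0.44, SE 0.23), below busulfan in both libraries. Gsta3, whose class also isomerises steroids, was at 264 and 353 against 173 and 277 FPKM (-0.48, SE 0.29), and busulfan 1 lay below Cus-1 2. Gsta2 was at 67.5 and 48.4 against 31.2 and 62.6 FPKM (-0.36, SE 0.37), again with overlap. Each of the 3 leaned on Cus-1 1: without it they were at -0.19, -0.14 and 0.13. Gsta2 shares 46.9% of the 75-base words of its longest coding transcript with other genes, so its reads may have been split among copies. Gsta1 was listed at 0 in 3 libraries and at 0.12 FPKM in Cus-1 2, and Gsta5 at 0 in the busulfan and 0.10 and 0.32 in the Cus-1 libraries, and neither was tested.

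Both tested pi class genes were lower in the 2 treated libraries, as were 31.7% of all tested genes. Gstp1, a transferase that also binds the kinase JNK, was at 407 and 279 FPKM in the busulfan and 208 and 222 in the Cus-1 libraries (log2 fold change -0.65, SE 0.23, adjusted p = 0.165), with -0.38 without busulfan 1. Gstp2, its less active copy, was at 6.80 and 5.25, then 2.36 and 2.90, FPKM in the busulfan and Cus-1 pairs (-0.95, SE 0.24, adjusted p = 0.152). The copies share 57.7% of the 75-base words of Gstp1 and 68.2% of those of Gstp2 with other genes, so that the level of Gstp2 in particular is uncertain. Gstp3 was at 0.58 and 0.72 FPKM in the busulfan and listed at 0 in both Cus-1 libraries, and was not tested.

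The theta class was split, with 3 genes above busulfan in both treated libraries and Gstt1 below. Of all tested genes, 36.6% lay above and 31.7% below, and whether the split of so small a class differs from these shares was not tested. Its genes lie side by side on chromosome 10 in the order Gstt3, Gstt1, Gstt4 and Gstt2, from 75774115 to 75837424. Gstt4 was at 19.7 and 24.5 FPKM in the busulfan and 79.0 and 33.9 in the Cus-1 libraries (log2 fold change 1.20, SE 0.42, adjusted p = 0.164), a difference set largely by Cus-1 1, without which it was 0.60. Gstt3 was at 23.3 and 19.1, then 30.3 and 29.0, FPKM in the busulfan and Cus-1 pairs (0.47, SE 0.17, adjusted p = 0.169), although 13.6% of its exonic bases and 24.97% of its 75-base words are shared with the readthrough gene Gm20441. Gstt2, which acts on organic hydroperoxides, was at 38.8 and 47.6 against 65.7 and 51.4 FPKM (0.43, SE 0.20), with 0.25 without Cus-1 1 and 0.28 without busulfan 1. Gstt1, which conjugates small halogenated compounds, was at 34.5 and 28.5 FPKM in the busulfan and 23.3 and 14.6 in the Cus-1 libraries (-0.73, SE 0.26, adjusted p = 0.168), and at -0.41 without Cus-1 2. Here Cus-1 2, not Cus-1 1, was the more distant treated library. Gstt1 gave 29.6% and 23.8% of the summed FPKM of the theta class in the busulfan and 11.8% and 11.3% with Cus-1.

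The omega class, whose members reduce dehydroascorbate and act as thioltransferases, showed the same split over 2 neighbouring genes on chromosome 19. Gsto2 (47865534 to 47886324) was at 42.9 and 56.0 FPKM in the busulfan and 114 and 87.2 in the Cus-1 libraries. Its group means were 49.5 ± 9.27 and 101 ± 19.2 FPKM (SD, n = 2), a ratio of 2.04, and its limma p was the smallest of all members (log2 fold change 1.01, SE 0.22, adjusted p = 0.152). It stayed between 0.82 and 1.20 with any 1 library left out. Gsto1 (47854970 to 47864790) was at 18.8 and 20.6 FPKM in the busulfan and 11.8 and 17.4 in the Cus-1 libraries (-0.44, SE 0.23), and at -0.17 without Cus-1 1. Both genes lie within the span of Cfap43, a sperm tail gene on the other strand, at 32.5 and 46.0 against 77.1 and 66.3 FPKM, but share 0 exonic bases with it.

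**Figure D3:**
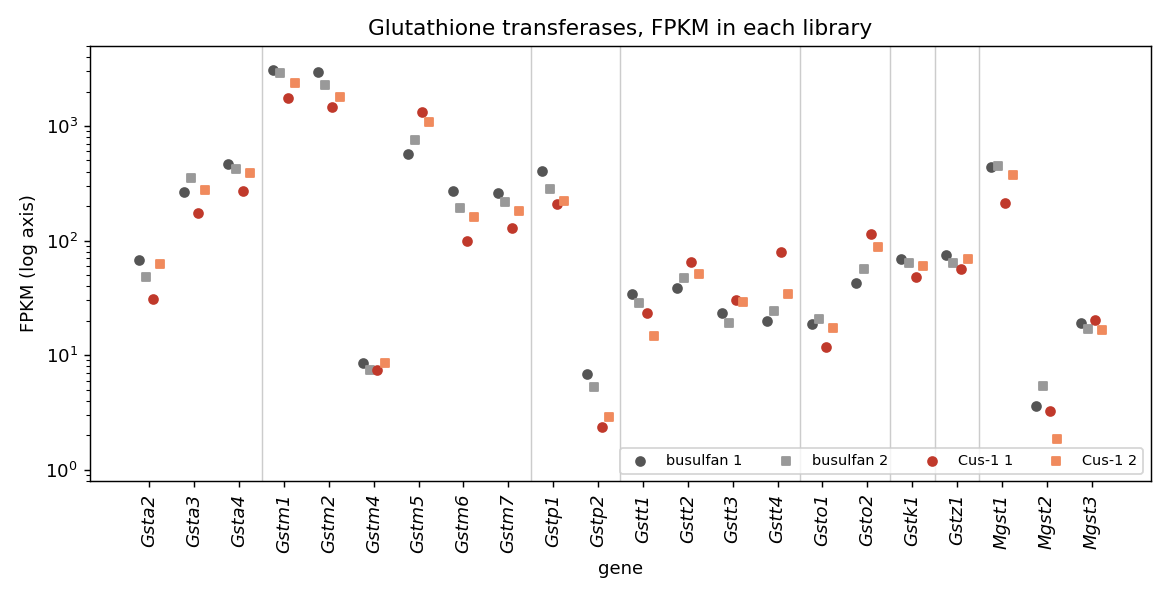
FPKM of each tested glutathione transferase gene in each library (y axis, log scale), grouped by class from alpha at the left to microsomal at the right, with grey for busulfan and red or orange for Cus-1 libraries. The red and orange points of Gstm5, Gstt2, Gstt3, Gstt4 and Gsto2 lie above both grey points, and those of Gstm1, Gstm2, Gstm6, Gstm7, Gstp1 and Gstt1 below.

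Ratios between neighbouring genes within a library do not depend on how libraries are scaled. These pairs were chosen after the values were seen, so the ratios are given as a description. Gstm5 stood at 0.186 and 0.262 times the FPKM of Gstm1 in the busulfan and 0.749 and 0.457 times with Cus-1. The ratio of Gsto2 to Gsto1 was 2.28 and 2.72 in the busulfan and 9.73 and 5.02 in the Cus-1 libraries. For Gstt4 over Gstt1 it was 0.573 and 0.858 against 3.38 and 2.32. In each of these pairs both treated ratios lay above both busulfan ratios. That had to follow, because the first gene lay above busulfan and the second below in both treated libraries. The separation of the ratios therefore adds nothing to the single genes.

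**Figure D4:**
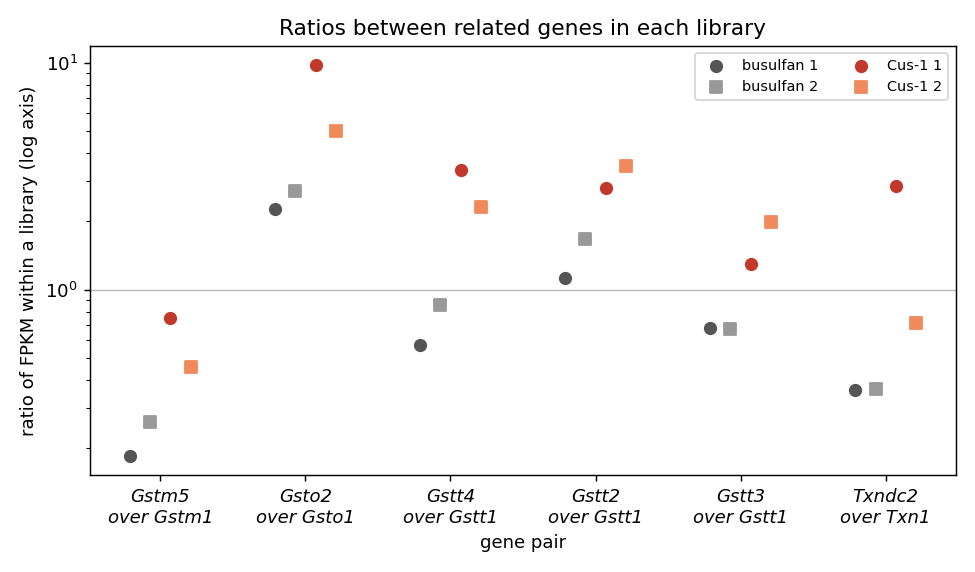
Ratio of FPKM between related genes within each library (y axis, log scale), for 6 pairs on the x axis, with grey for busulfan and red or orange for Cus-1 libraries. In every pair shown both Cus-1 ratios lie above both busulfan ratios, as they must where the first gene lay above and the second below. The gap is narrowest for Gstt2 over Gstt1 (2.81 with Cus-1 1 against 1.67 with busulfan 2). Cus-1 1 stands far above the rest in Txndc2 over Txn1 (2.85).

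The kappa, zeta and microsomal transferases were lower or level. Mgst1, a membrane enzyme with transferase and lipid peroxidase activity, was at 437 and 444 FPKM in the busulfan and 215 and 372 in the Cus-1 libraries (log2 fold change -0.64, SE 0.29), and at -0.24 without Cus-1 1. Mgst2, which can make leukotrienes, was at 3.59 and 5.36 against 3.28 and 1.86 FPKM (-0.63, SE 0.32), with -0.39 without busulfan 2 and -0.34 without Cus-1 2. Mgst3 overlapped, at 19.2 and 17.0 against 20.4 and 16.6 FPKM. Gstk1, the transferase of mitochondria and peroxisomes, was at 69.7 and 63.2 against 48.0 and 59.9 FPKM (-0.30, SE 0.17, and -0.15 without Cus-1 1). Gstz1, the maleylacetoacetate isomerase of tyrosine breakdown, overlapped at 74.2 and 64.2 against 56.3 and 68.6 FPKM.

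Among the peroxiredoxins, the cytosolic Prdx1 and Prdx2, the mitochondrial Prdx3 and Prdx6 were below busulfan in both treated libraries, while Prdx5 and the sulfiredoxin gene Srxn1 were above. Of the 7 genes of this family, 57.1% lay below and 28.6% above, against 31.7% and 36.6% of all tested genes. Prdx2 was at 213 and 179 FPKM in the busulfan and 100.0 and 143 in the Cus-1 libraries (log2 fold change -0.70, SE 0.23, adjusted p = 0.158, and -0.45 without Cus-1 1). Its exons share bases with 2 genes on the other strand with log2 fold changes of opposite sign, Rnaseh2a at 0.74 and Junb at -0.89. Prdx3 stood at 127 and 122 FPKM without and at 71.5 and 99.6 FPKM with Cus-1 (-0.55, SE 0.20, adjusted p = 0.170, and -0.32 without Cus-1 1). Prdx6, which also reduces phospholipid hydroperoxides, was at 169 and 159 against 128 and 130 FPKM (-0.34, SE 0.14), and depended little on Cus-1 1 (-0.33 without it). Prdx1 was at 336 and 367 against 218 and 324 FPKM, and its log2 fold change of -0.40 was -0.12 without Cus-1 1. The small fold change of Prdx5, at 122 and 135 against 137 and 150 FPKM, was 0.15 (SE 0.15). Prdx4, the peroxiredoxin of the endoplasmic reticulum, overlapped at 69.1 and 75.4 against 99.1 and 71.2 FPKM. Srxn1, which restores over-oxidised peroxiredoxins, was at 5.08 and 5.53 FPKM in the busulfan and 8.03 and 7.70 in the Cus-1 libraries (0.49, SE 0.19, adjusted p = 0.180), and lay between 0.44 and 0.54 with any 1 library left out.

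Of the 4 superoxide dismutase and catalase genes, 3 lay below busulfan in both treated libraries and Sod2 overlapped. Among all tested genes 31.7% lay below, and a difference of this small family from that share was not tested. The cytosolic Sod1 was at 773 and 785 FPKM in the busulfan and 492 and 745 in the Cus-1 libraries (log2 fold change -0.36, SE 0.25), the extracellular Sod3 at 39.25 and 40.02 against 20.5 and 33.2 (-0.58, SE 0.25), and the peroxisomal Cat at 31.4 and 30.2 against 17.5 and 27.9 (-0.46, SE 0.25). These 3 differences were smaller without Cus-1 1, at -0.06, -0.25 and -0.14. The mitochondrial Sod2 overlapped, at 135 and 166 against 162 and 167 FPKM (0.13, SE 0.17).

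**Figure D5:**
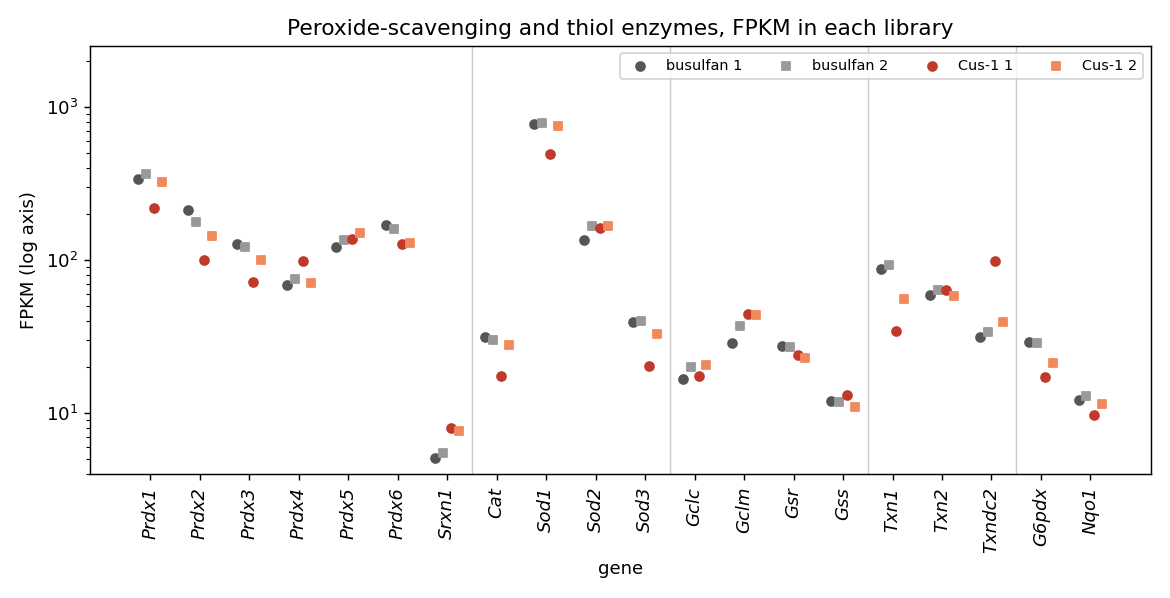
FPKM of each peroxiredoxin, superoxide dismutase, glutathione, thioredoxin and NADPH enzyme gene in each library (y axis, log scale), grouped by family along the x axis, with grey for busulfan and red or orange for Cus-1 libraries. Txn1 shows the widest gap downward (87.5 and 92.6 against 34.5 and 55.5 FPKM), and for Sod1, Cat and Sod3 the orange point of Cus-1 2 lies close to the grey points.

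Of the 4 genes of glutathione synthesis and reduction, Gclm lay above busulfan in both treated libraries, Gsr lay below and 2 overlapped. These shares were 25.0% above and 25.0% below, not far from the 36.6% and 31.7% of all tested genes. Gclm, the modifier subunit of the rate-limiting ligase, was at 29.0 and 37.3 FPKM in the busulfan and 44.4 and 44.1 in the Cus-1 libraries, above busulfan in both libraries (log2 fold change 0.42, SE 0.18, adjusted p = 0.195, and 0.24 without busulfan 1). The catalytic subunit gene Gclc overlapped at 16.7 and 20.01 against 17.4 and 20.7 FPKM, and the glutathione synthetase gene Gss at 12.0 and 11.9 against 13.1 and 10.9. Gsr, which reduces oxidised glutathione with NADPH, was at 27.6 and 27.1 against 24.1 and 23.1 FPKM, slightly lower in both libraries (-0.20, SE 0.15). G6pdx, the entry enzyme of the pentose phosphate pathway, was at 29.2 and 28.8, then 17.3 and 21.4, FPKM in the busulfan and Cus-1 pairs (-0.57, SE 0.17, adjusted p = 0.153), and between -0.72 and -0.42 with any 1 library left out. Nqo1, a quinone reductase and a standard NRF2 target, was at 12.2 and 13.0 against 9.74 and 11.4 FPKM (-0.23, SE 0.18, and -0.13 without Cus-1 1).

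The thioredoxins showed the widest contrast outside the transferases. Txn1, the cytosolic thioredoxin, was at 87.5 and 92.6 FPKM in the busulfan and 34.5 and 55.5 in the Cus-1 libraries. Its group means were 90.1 ± 3.57 and 45.0 ± 14.9 FPKM (SD, n = 2), and its log2 fold change of -1.02 (SE 0.25, adjusted p = 0.152) was the most negative among the tested members, and ran from -1.36 to -0.69 as each library was left out. The mitochondrial Txn2 was level, at 59.3 and 63.6 against 63.8 and 58.5 FPKM. Txndc2, the spermatid thioredoxin, was at 31.6 and 33.8 FPKM in the busulfan and 98.1 and 39.7 in the Cus-1 libraries (0.91, SE 0.43, adjusted p = 0.218). Its height rests on Cus-1 1, which also had the highest elongating spermatid sum, and without that library the difference was 0.27.

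Matches to the antioxidant response element core were compared between the members that lay above and those that lay below, since Gclm, Srxn1 and Nqo1 are standard NRF2 targets. RefSeq promoters of 300 bases (250 before and 50 after the start site, GRCm38.p6) were found for 36 of the 42 tested members, and TGACNNNGC was sought on both strands. Of the members above busulfan in both treated libraries, 4 of 8 had a match, of those below 5 of 19, and of those that overlapped 1 of 9, while 14.0% of all genes with such a promoter had one. A match is a string of letters, not a measured binding site, and genes with several promoters in the table had more chances of one. Nqo1 lay below busulfan and had no match, and Gclc had no promoter among those searched. For Txndc2, above busulfan, and for Gstm7 and Mgst1, below it, the match was in 1 promoter of the gene and not in the other. Bases farther from the start sites were not searched, and the differences between these shares were not tested. The 1 overlapping member with a match was Gsta3, whose window is not shown. For the members above and below, the 30-base windows around the matches are shown on the strand of the gene, with the match in capitals. On the other strand the core reads GCNNNGTCA. The first 4 are from members above busulfan and the next 5 from members below.
Gclm, chr3:122245413-122245442, plus strand: gctcccgggcGCACCGTCAactctcacgag
Gstm5, chr3:107895802-107895831, plus strand: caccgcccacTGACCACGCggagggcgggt
Srxn1, chr2:152105542-152105571, plus strand: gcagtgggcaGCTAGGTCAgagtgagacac
Txndc2, chr17:65639940-65639969, minus strand: ctttgaacctTGACCTAGCctagctgtgta
G6pdx, chrX:74428918-74428947, minus strand: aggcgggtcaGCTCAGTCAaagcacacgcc
Gstm7, chr3:107931724-107931753, minus strand: tctgaagaccTGACAAAGCgaagccaatcc
Mgst1, chr6:138140461-138140490, plus strand: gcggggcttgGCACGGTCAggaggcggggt
Prdx1, chr4:116685456-116685485, plus strand: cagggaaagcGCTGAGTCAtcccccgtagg
Sod1, chr16:90220696-90220725, plus strand: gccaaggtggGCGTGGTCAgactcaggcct
The full palindrome TGACGTCA, to which CREM and CREB bind, was found in none of the 46 promoters that the table holds for these 36 members, and in 2.03% of all genes with such a promoter.

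For other genes of the same pathways, counts are of genes below or above busulfan in both treated libraries, where 31.7% of all tested genes lay below and 36.6% above. Of the 6 tested glutathione peroxidases, 3 lay below (50%) and 2 above (33.3%, near the share of all genes). In this family Gpx1 was at 293 and 319 FPKM against 153 and 274 (log2 fold change -0.58, and -0.16 without Cus-1 1), Gpx3, the secreted form, at 42.9 and 42.7 against 18.4 and 27.9 (-0.89, SE 0.23, adjusted p = 0.152), and Gpx4, the phospholipid hydroperoxide peroxidase, higher by 0.47. The family median of -0.47 was -0.060 without Cus-1 1. Of 17 genes of glutathione breakdown and transport, 8 lay below (47.1%) and 3 above (17.6%). Among them Dpep3, a testis dipeptidase, was at 64.0 and 80.2 FPKM in the busulfan and 164 and 137 in the Cus-1 libraries (1.05, SE 0.19, adjusted p = 0.152), Dpep1 at 28.7 and 20.2 against 12.2 and 13.0 (-0.88), and the cystine transporter subunit gene Slc3a2 at 439 and 449 against 265 and 382 (-0.48, and -0.22 without Cus-1 1).

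Of 16 thioredoxin reductases, glutaredoxins and thioredoxin-like genes, 6 lay below (37.5%) and 4 above (25.0%), shares not far from the 31.7% and 36.6% of all genes. Txnip, the inhibitor of thioredoxin, was at 421 and 369 FPKM in the busulfan and 184 and 184 in the Cus-1 libraries (log2 fold change -1.09, SE 0.16, adjusted p = 0.152), and it depended little on any library (-1.19 to -0.999 as each was left out). Glrx3 was at 134 and 166 against 222 and 205 FPKM (0.51), and the nucleoredoxin gene Nxn at 29.0 and 34.2 against 61.1 and 48.7 (0.77, SE 0.19). Of 12 genes of NADPH supply, 7 lay below (58.3%, against 31.7% of all genes) and 1 above (8.33%, against 36.6%). The transketolase gene Tkt was at 97.8 and 105, then 47.2 and 63.0, FPKM in the busulfan and Cus-1 pairs (-0.88, SE 0.19, adjusted p = 0.152), Idh1 at 299 and 339 against 180 and 266 (-0.54, and -0.26 without Cus-1 1), Me3 at 3.51 and 5.21 against 6.15 and 7.45 (0.55, and 0.32 without busulfan 1), and Me1, the most abundant, overlapped.

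Of 17 regulators and other targets of NRF2, 12 lay below busulfan in both treated libraries (70.6%, against 31.7% of all genes) and 1 above (5.88%, against 36.6%) (median log2 fold change -0.53, and -0.29 without Cus-1 1). The ferritin genes Fth1 and Ftl1 were the most abundant, Blvrb, a biliverdin reductase, had the smallest limma p (33.5 and 28.3 against 17.9 and 21.3 FPKM, -0.63, SE 0.18, adjusted p = 0.152), and Osgin1 was the member above (23.8 and 26.1 against 37.4 and 30.1 FPKM, 0.41, and 0.26 without Cus-1 1). Of 13 tested genes of other GST-fold and membrane transferase-like proteins, 8 lay below (61.5%, against 31.7% of all genes) and 1 above (7.69%, against 36.6%). Hpgds, the prostaglandin D synthase of the sigma class, was at 3.72 and 2.87, then 1.38 and 0.990, FPKM in the busulfan and Cus-1 pairs (-0.97, SE 0.25, limma adjusted p = 0.152). Eef1g was at 99.6 and 113 against 92.9 and 81.3 (-0.29, and -0.19 without Cus-1 2). Mtx1, a mitochondrial import gene with a GST fold, was at 73.8 and 82.9 against 99.0 and 89.2 (0.26). None of the genes in these 6 lists passed the adjusted threshold in limma.

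The remaining untested member was Gstm3, at 0.270 to 0.420 FPKM in the 4 libraries. Beyond the alpha and pi genes, 75-base words shared with other transcripts made up 24.97% of Gstt3, the largest share among the other tested members, 14.8% of Gstm1, 12.2% of Sod1, 5.63% of Prdx1, 5.59% of Prdx2 and 5.34% of Gstm6, and 21.6% of the untested Gstm3. The share was 0% for Gstm5, Gsto2, Gstt1, Gstt4, Txn1 and Txndc2. Exonic bases were shared with another annotated gene for 8 of the tested members, in 7 cases with one on the opposite strand, and the counting's strand setting is not given in the sources used here.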

How the data were processed

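RNA sequencing of testis tissue gave 4 libraries, 2 per group. The authors deposited 1 table of FPKM values to 2 decimals, as the table's own name says. The submitters' processing notes name the build mm10. Which aligner, counter, annotation, strand setting and filter were used is not given in the sources used here. Table columns were matched to samples by the library name in the labels, groups came from the source label, and replicate numbers only name samples. Of 45536 rows with values, 910 without a gene name were left out, and of 115 symbols on more than 1 row the row with the highest mean was kept.

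The 19837 genes that reached 1 FPKM in 2 or more libraries were tested with limma 3.58.1 in R 4.3.3 on log2(FPKM + 1), with a mean-variance trend and Benjamini-Hochberg adjustment over all of them at 0.05. Fold changes on this scale understate low genes. The fit was tested on simulated data with known changes. Depth was estimated from the tallest peak of FPKM times transcript length over genes with 1 transcript, taken as 1 fragment. The peak was sought within a preset range, which bounds the estimate. Members, gene lists and tests were chosen with earlier results of these data known. All tested members may be named, with values in every library where their mean reached 20 FPKM or their limma p was under 0.05. Of each related list, the 2 most abundant genes and the smallest p in each direction are named. Positions come from GENCODE M21 (45 of 46 members matched), shared 75-base words from its transcripts, and promoters from RefSeq. Alternatives covered the pseudocount, the filter, the scaling, the trend and leaving out each library.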

Additional observations from a re-analysis of the deposited data

How the results depend on the processing

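No paired analysis was possible because the labels give the groups no shared replicate numbers. No member passed the adjusted threshold in limma under any of the 11 alternatives, while without Cus-1 1 there were 7 such genes in all (0 to 7 over the left-out libraries). Of the 42 tested members, 34 kept the sign of their fold change under every alternative. Quantile normalization moved the median of all genes from 0.04 to -0.06 and the genes at an unadjusted p under 0.05 from 3576 higher and 1975 lower to 2831 and 2697. Members at that p numbered 2 to 4 higher and 1 to 18 lower with 1 library left out. The member median then ran from -0.38 to -0.13.

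With 1 library left out, the family medians ran from -0.72 to -0.10 for superoxide dismutases and catalase, -0.032 to 0.088 for glutathione synthesis, -0.82 to -0.14 for GST alpha, -0.65 to -0.24 for microsomal GST, -0.36 to -0.12 for peroxiredoxins, -0.58 to -0.16 for all GST classes and -0.26 to -0.12 for the other members. Related lists ran from -0.87 to -0.060 for glutathione peroxidases, -0.33 to -0.17 for glutathione breakdown, -0.39 to -0.22 for NADPH supply and -0.37 to -0.23 for other GST-fold genes. Marker medians ran from -0.79 to -0.30 for peritubular, -0.68 to -0.39 for endothelial, -0.13 to 0.11 for spermatogonia, 0.60 to 1.40 for spermatocyte, 0.50 to 1.92 for elongating spermatid, -0.89 to 0.012 for erythrocyte and -0.93 to -0.041 for epididymis genes. Among single genes whose sign turned, the ranges were -0.071 to 0.18 for Gclc, -0.12 to 0.13 for Gss, -0.85 to 0.13 for Gsta2, -0.091 to 0.098 for Gstm4, -0.12 to 0.17 for Mgst3, -0.019 to 0.45 for Prdx4, -0.017 to 0.28 for Sod2 and -0.068 to 0.056 for Txn2.

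Under quantile normalization the median was -0.28 for GST mu, -0.48 for peroxiredoxins, -0.37 for glutathione breakdown and -0.39 for other GST-fold genes, and Gss was at -0.036, Gstm4 at -0.042, Mgst3 at -0.012 and Sod2 at -0.0100. Median centring gave -0.34 for other GST-fold genes, -0.048 for Gss, -0.047 for Gstm4 and -0.027 for Mgst3. A pseudocount of 0.1 gave -0.32 for glutathione breakdown, a filter of 5 FPKM left microsomal GST at -0.31 with fewer genes, and no filter put epididymis genes at 0.10. The cause of these shifts was not tested beyond the number of genes. With 2 libraries a group and low values printed to 2 decimals, differences in genes under 1 FPKM were not measurable.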
